A study of Mus musculus with 24 samples.

Results

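The glutathione transferases of the mu class (Gstm1 to Gstm7) and of the pi class (Gstp1 and Gstp2) were followed in mouse liver by every non-control array probe whose gene name in the scanner files was one of these 9 symbols. The 9 genes, of 17916 named genes tested, gave 13 probes, 11 for the 7 mu genes and 2 for the 2 pi genes, of 56605 probes on the array, and all 13 were among the 32078 probes bright enough to be tested. Total liver RNA of C57BL/6J mice was hybridised to 24 single-colour arrays in 4 labelled groups of 6, which were male mice on the pesticide diet, male mice on the control diet, female mice on the pesticide diet and female mice on the control diet. The labels give all mice an age of 68 weeks and 52 weeks of diet, the pesticide diets carrying a pesticide mixture that the labels do not list and the control diets lacking it. That age is longer than the age at purchase, the acclimatisation and the time on the diet given in the labels add up to. With no mouse number given, the p-values speak only of the spread among these samples. Whole liver was used, and in bulk RNA fewer cells of a type and less RNA per cell cannot be told apart.

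Glutathione transferases join the tripeptide glutathione to reactive electrophiles, many of which come from drugs, pesticides or lipid peroxidation, so that the conjugates can be exported and excreted. The mu and pi enzymes are cytosolic dimers, the mu genes lie in a cluster on mouse chromosome 3, and pi proteins also bind signalling kinases such as JNK. In mouse liver the pi class is known as a major soluble transferase that is higher in males than in females, and several mu genes are known to be induced through the transcription factor NRF2 and the nuclear receptor CAR.

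The sex labels and the sex-linked transcripts did not match on 12 of the 24 arrays, and this touches every comparison below. Xist, the RNA that coats the inactive X chromosome in females, averaged 8.24 on labelled male pesticide arrays and 8.21 on labelled female pesticide arrays, against 5.08 on labelled male control and 5.12 on labelled female control arrays (log2 intensity). It was well above background on 6 of 6 arrays of each labelled pesticide group and on 0 of 6 of each labelled control group. The Y-linked Eif2s3y, a translation initiation factor subunit, was at 5.08 and 5.13 in labelled male and female pesticide arrays, against 10.94 and 10.99 in labelled male and female control arrays. On every array the sex-linked transcripts went with the labelled diet, and diet and sex cannot be told apart in these files. Groups are named by their labels throughout. Median spot signals ran from 63 to 109 and no spot was saturated. The array labelled female pesticide 3 stood apart, with the highest median signal and 39032 probes well above background, the lowest count being 29935.

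The probe sequences decide which transcript each value stands for, and those of the 3 probes that passed the test and of their nearest comparator are shown here, 5′ to 3′, with probe positions on the build mm9 as the scanner files give them. The Gstp1 probe (chr19:4037306-4037365) is listed in the files with RefSeq transcripts of both Gstp1 and Gstp2, so its signal may hold both. The Gstp2 probe (chr19:4040283-4040342) is listed with the RefSeq transcript of Gstp2 and not with that of Gstp1. It is also listed with predicted transcripts whose genes were not identified here. The 30 bases shown hold the polyadenylation signal in capitals. Gstm6 was read by a probe at the end of the gene (chr3:107741766-107741825), of which the last 30 bases are shown, and by a probe inside it (chr3:107745662-107746199), whose listed span is longer than its 60 bases.
Gstp1 probe: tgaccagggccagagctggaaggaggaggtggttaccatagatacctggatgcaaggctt
Gstp2 probe, 30 bases: tttcccagcactAATAAAgtttgtaagaca
Gstm6 end probe, last 30 bases: tgtgagctctagtaaagtgttatccatact
Gstm6 inner probe: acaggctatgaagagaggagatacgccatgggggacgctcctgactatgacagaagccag

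The 2 pi genes fell most of all the members, so the 250 bases before each start site are shown from RefSeq (GRCm38.p6, minus strand, chr19:4037913-4038162 for Gstp1 and chr19:4042222-4042471 for Gstp2). Capitals mark the letters TGAGTCA, which the AP-1 transcription factors are known to bind, and GC boxes (GGGCGG).
Gstp1: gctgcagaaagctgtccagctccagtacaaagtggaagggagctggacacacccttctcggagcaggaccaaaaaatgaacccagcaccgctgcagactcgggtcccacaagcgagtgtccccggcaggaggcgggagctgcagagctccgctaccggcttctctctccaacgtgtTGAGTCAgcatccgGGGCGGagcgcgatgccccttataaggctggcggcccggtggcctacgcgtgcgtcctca
Gstp2: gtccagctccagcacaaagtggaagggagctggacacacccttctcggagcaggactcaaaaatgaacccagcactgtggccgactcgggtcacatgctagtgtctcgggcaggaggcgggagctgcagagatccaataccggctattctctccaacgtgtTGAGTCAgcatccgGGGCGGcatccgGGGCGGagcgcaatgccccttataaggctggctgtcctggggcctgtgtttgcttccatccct

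The windows were 78.5% identical over 265 aligned columns. TGAGTCA began 74 bases before the start site in Gstp1 and 89 bases before it in Gstp2, and the GC box stood once in Gstp1 and at 2 places in Gstp2. All 9 genes had entries in the promoter table, with 14 start sites among them. Searched on both strands over 250 bases, TGAGTCA stood in 3 of these 14 windows (3 genes) and in 4.5% of 32851 mouse promoter windows, and GGGCGG in 7 of 14 (6 genes) and in 32.7%. The 14 windows are not independent, since those of Gstm4 overlap almost wholly and those of Gstp1 and Gstp2 are alike. The antioxidant response element core TGACNNNGC, the NRF2 type of motif, was in the windows of Gstm5 and Gstm7 (10.2% of all windows), the STAT core TTCNNNGAA in that of Gstm6 (7.0%), and the TATA box TATAAA in those of Gstm1 and Gstm7 (12.4%). TGAGTCA overlaps the antioxidant core when GC follows on the strand read as TGACTCA, and it was added to the search after the pi sequences had been read. These matches describe letters and were not tested as binding sites.

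In both labelled sexes Gstp1, Gstp2 and the end probe of Gstm6 were lower on labelled pesticide arrays than on labelled control arrays, and the other 10 probes did not pass the test. Values are the log2 of the median spot signal, quantile normalized between arrays, and a probe passed at an adjusted p under 0.05 (limma with Benjamini-Hochberg adjustment over all tested probes). Of the 13 member probes 3 were lower and 0 higher in labelled males, where 10.7% of all tested probes were lower and 22.2% passed in either direction. The same 3 were lower and 0 higher in labelled females, where 9.44% of all tested probes were lower and 18.3% passed. Across the array 6.23% of the probes were lower in both labelled sexes. The median difference over the 13 probes was -0.0009 in labelled males and -0.13 in labelled females, against -0.03 and -0.02 over all tested probes.

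Gstp1 gave the widest gap. Its probe read 12.97, 12.67, 12.96, 12.91, 13.17 and 12.96 on the 6 labelled male pesticide arrays, against 15.04, 15.42, 15.77, 15.95, 15.64 and 16.30 on the labelled male control arrays. On labelled female arrays it read 13.04, 12.97, 12.96, 12.92, 12.99 and 13.005 with pesticide, against 15.33, 15.21, 14.52, 15.64, 14.51 and 16.08 in controls. Every labelled pesticide array lay below every labelled control array of either labelled sex. The labelled pesticide arrays were also the tighter ones, with an SD of 0.16 in labelled males and 0.04 in labelled females, against 0.43 and 0.62 in the labelled controls (n = 6 each). In labelled males Gstp1 fell by 2.75 on the log2 scale (SE 0.21, 95% interval -3.18 to -2.32), which is 6.73-fold lower (limma adjusted p = 7.1e-10). In labelled females it fell by 2.24 (SE 0.21), which is 4.71-fold lower (limma adjusted p = 3.4e-08).

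Gstp2, the second pi gene, was also lower on labelled pesticide arrays, with a smaller step. Its probe read 16.60, 16.41, 16.51, 16.21, 16.35 and 16.34 on labelled male pesticide arrays, against 17.91, 17.98, 18.09, 18.10, 17.97 and 18.10 on labelled male control arrays. For labelled females it read 16.55, 16.61, 16.18, 16.24, 16.34 and 16.43 with pesticide, against 17.97, 17.98, 17.57, 18.09, 17.42 and 18.20 in controls. No labelled pesticide array reached a labelled control array. The SD was 0.14 with pesticide and 0.08 in controls in labelled males, and 0.17 and 0.31 in labelled females (n = 6 each). The fall was 1.62 in labelled males, that is -1.62 on the log2 scale (SE 0.11, 3.08-fold lower, limma adjusted p = 8.6e-11), and -1.48 in labelled females (SE 0.11, 2.79-fold lower, limma adjusted p = 5.3e-10). Before normalization the median spot signal was 82807.5 to 103990 on labelled male pesticide arrays, against 251878 to 286284 on labelled male control arrays, none of them marked as saturated. Among all tested probes Gstp1 ranked as number 47 and Gstp2 as number 163 of the lowest differences in labelled males. In labelled females they ranked as numbers 71 and 166.

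**Figure D1:**
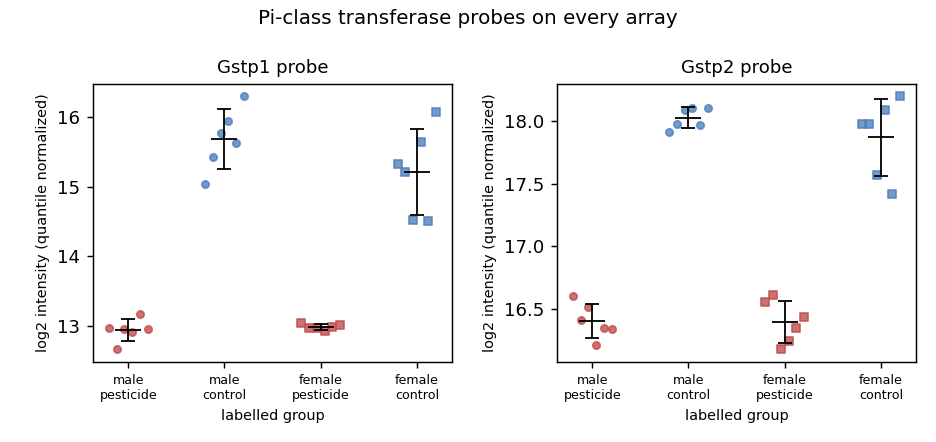
Log2 intensity (y axis, quantile normalized) of the Gstp1 probe (left) and the Gstp2 probe (right) on each of the 24 arrays, by labelled group (x axis), with points for arrays and black bars for the mean and SD of 6 arrays. All 12 labelled pesticide arrays lie below all 12 labelled control arrays in both panels, and the y axes do not start at 0.

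Within each slide, which held 2 arrays of every group, Gstp1 differed by -2.42, -2.93 and -2.91 in labelled males and by -2.27, -2.14 and -2.30 in labelled females. The third of those labelled female values did not pass with 2 arrays against 2 (limma adjusted p = 0.07). Gstp2 differed within slides by -1.44, -1.73 and -1.69 in labelled males and by -1.39, -1.62 and -1.42 in labelled females. With any 1 array left out, Gstp1 stayed between -2.88 and -2.63 in labelled males and between -2.38 and -2.06 in labelled females, and every such difference passed.

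The 2 pi probes did not fall by the same amount on the same arrays. The Gstp1 value minus the Gstp2 value averaged -3.46 ± 0.21 on labelled male pesticide arrays and -2.34 ± 0.36 on labelled male control arrays (SD over 6 arrays each), a difference of -1.13. In labelled females it averaged -3.41 ± 0.15 with pesticide and -2.66 ± 0.34 in controls (SD over 6 arrays each), a difference of -0.76. The labelled pesticide and control arrays did not overlap in either labelled sex. An exact two-sided permutation test over the 924 splits of 12 arrays gave p = 0.00216 in each labelled sex, the smallest p these splits can give. This comparison was chosen after the values had been seen. A ratio between probes shows unequal change of the 2 signals, and since the Gstp1 probe is listed with both transcripts it does not give the change of each gene apart.

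Of the 11 mu probes only the end probe of Gstm6 passed. It read 13.74, 14.07, 14.14, 13.96, 14.24 and 13.97 on labelled male pesticide arrays, against 15.02, 14.68, 14.42, 14.22, 14.60 and 14.26 on labelled male control arrays. On labelled female arrays it read 13.95, 14.14, 13.995, 14.08, 14.26 and 13.72 with pesticide, against 14.51, 14.64, 14.52, 14.86, 14.61 and 14.26 in controls. In labelled males 1 pesticide array lay above the lowest control array, and in labelled females the highest pesticide array and the lowest control array were both at 14.26. The Gstm6 end probe fell by 0.51 in labelled males (SE 0.12, 1.43-fold lower, limma adjusted p = 0.0042) and by 0.54 in labelled females (SE 0.12, 1.46-fold lower, limma adjusted p = 0.0032). Within slides it was lower in all 6 comparisons, by -0.94, -0.27 and -0.32 in labelled males and -0.53, -0.65 and -0.44 in labelled females, of which only the labelled males of the first slide passed (limma adjusted p = 0.035, 2 arrays against 2). The pesticide arrays lay wholly below the control arrays for 2 of the 13 probes in labelled males (4.61% of all tested probes) and for Gstp1 and Gstp2 in labelled females (4.19% of all), where the Gstm6 end probe met its controls at 14.26. The shares were taken from unrounded values. By these the Gstm6 end probe also lay below in labelled females, by a margin lost in rounding, which makes 3 of the 13.

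**Figure D2:**
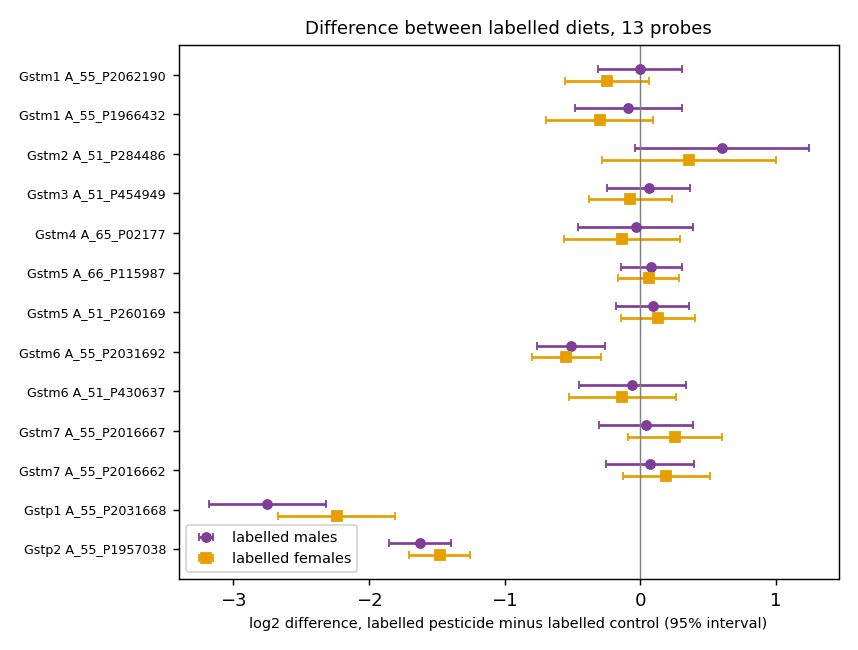
Log2 difference, labelled pesticide minus labelled control (x axis), with its 95% interval for the 13 probes (y axis), circles for labelled males and squares for labelled females, 6 arrays against 6 in each. The intervals of Gstp1, Gstp2 and Gstm6 A_55_P2031692 lie below 0 in both labelled sexes, and those of the other 10 probes cross 0.

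The inner probe of Gstm6 did not pass. It averaged 11.96 ± 0.39 on labelled male pesticide arrays and 12.02 ± 0.44 on labelled male control arrays (SD over 6 arrays each), a difference of -0.06 (limma adjusted p = 0.87). In labelled females it averaged 12.11 ± 0.28 with pesticide and 12.24 ± 0.28 in controls (SD over 6 arrays each), a difference of -0.13 (limma adjusted p = 0.68). Set against each other on every array, the end probe exceeded the inner probe by 2.06 ± 0.25 on labelled male pesticide arrays and 2.51 ± 0.27 on labelled male control arrays, a change of -0.45 (exact permutation p = 0.0173, adjusted over 8 such tests 0.0693). The change in labelled females was -0.41 (exact permutation p = 0.00866, adjusted 0.0693). Neither passed after adjustment, although each pointed the same way, and without the array labelled male control 5 the labelled male change was -0.5459 with an adjusted p of 0.0346. The labelled female change passed likewise without labelled female control 5 or 6. With other single arrays left out neither passed, and the adjusted exact permutation p reached 0.139 in labelled males and 0.0866 in labelled females.

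Gstm1, Gstm5 and Gstm7 also had a pair of probes each, and none of these pairs passed the same test. Their exact permutation p-values, adjusted over the same 8 tests, ran from 0.444 to 0.903. The Gstm7 probe A_55_P2016662 was dim, as given below with its signals. The 2 Gstm5 probes differed by 1.24 ± 0.11 on labelled male pesticide arrays and 1.25 ± 0.11 on labelled male control arrays, and by 1.25 ± 0.08 on labelled female pesticide arrays and 1.32 ± 0.08 on labelled female control arrays (SD over 6 arrays each). The Gstm1 pair differed by 0.64 ± 0.26 with pesticide and 0.55 ± 0.15 in controls among labelled males (SD over 6 arrays each), with the groups overlapping. One Gstm1 probe (A_55_P2062190) is placed by the files on chromosome 5 (mm9, chr5:117082490-117082549), away from the other mu probes on chromosome 3.

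**Figure D3:**
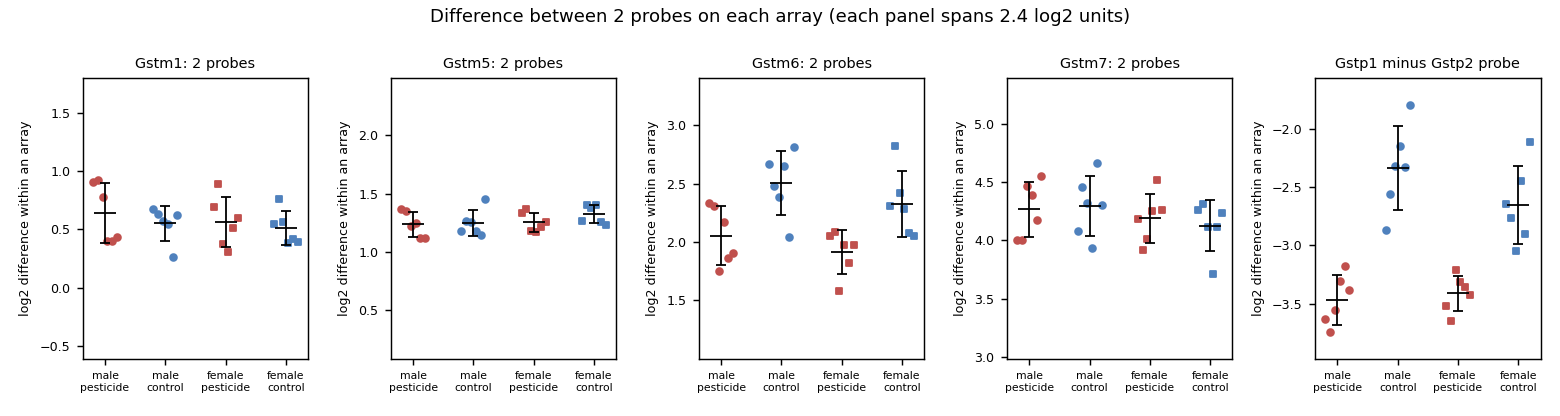
Difference between 2 probes on the same array (y axis, log2, each panel spanning 2.4 units) for the probe pairs of Gstm1, Gstm5, Gstm6 and Gstm7 and for Gstp1 minus Gstp2, by labelled group (x axis), with points for arrays and bars for the mean and SD of 6. The labelled pesticide arrays lie apart from the labelled controls in the Gstp1 minus Gstp2 panel, overlap them in the other 4 panels.

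Gstm2 had the largest difference among the mu probes that did not pass, and it was also the least steady. Its probe read 12.91, 14.22, 14.47, 13.55, 14.22 and 13.67 on labelled male pesticide arrays, against 14.24, 13.74, 12.94, 12.69, 13.75 and 12.07 on labelled male control arrays. The groups overlapped over most of their range. The difference was 0.60 in labelled males (SE 0.31, limma adjusted p = 0.17) and 0.36 in labelled females (SE 0.31, limma adjusted p = 0.46). Over both labelled sexes it was 0.48 (limma adjusted p = 0.091), in a comparison where 36.1% of all tested probes passed and 18.6% were lower, among them the same 3 member probes. It passed over both labelled sexes without the array labelled male control 1 (0.58, limma adjusted p = 0.035) or without labelled male pesticide 1 (0.57, limma adjusted p = 0.038). These held the highest labelled male control value and the lowest labelled male pesticide value of Gstm2. Leaving out each array in turn gave 0.36 to 0.58, with a limma adjusted p of 0.035 to 0.17, and only these 2 omissions passed. Within slides the labelled male difference was -0.42, 1.19 and 1.03.

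The remaining mu probes differed by -0.30 to 0.26 and did not pass. Gstm3 averaged 17.39 ± 0.21 on labelled male pesticide arrays and 17.32 ± 0.32 on labelled male control arrays, and 17.54 ± 0.12 and 17.61 ± 0.36 in the labelled female pesticide and control livers (SD over 6 arrays each). Gstm4 averaged 12.999 ± 0.38 with pesticide and 13.03 ± 0.37 in controls among labelled males, and 13.25 ± 0.22 with pesticide and 13.39 ± 0.50 in controls among labelled females (SD over 6 arrays each). The labelled pesticide and control arrays overlapped for both genes. The 2 Gstm1 probes differed by -0.0009 and -0.09 in labelled males and by -0.24 and -0.30 in labelled females (SE 0.15 and 0.19, limma adjusted p from 0.27 to 1). The 2 Gstm5 probes differed by 0.08 and 0.09 in labelled males and by 0.06 and 0.13 in labelled females, and the 2 Gstm7 probes by 0.04 and 0.07 in labelled males and by 0.26 and 0.19 in labelled females. The second Gstm7 probe (A_55_P2016662) was dim, with median spot signals of 57 to 168.5 over a local background of 25 to 33, which was not subtracted. It is listed with a predicted transcript only. None of these differences passed, and their 95% intervals still allow differences of the size seen for Gstm6 in several cases, such as -0.69 to 0.10 for Gstm1 A_55_P1966432 in labelled females. The sign of the labelled male difference of Gstm3 turned to -0.17 when arrays were scaled to their 75th percentile, still without passing.

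**Figure D4:**
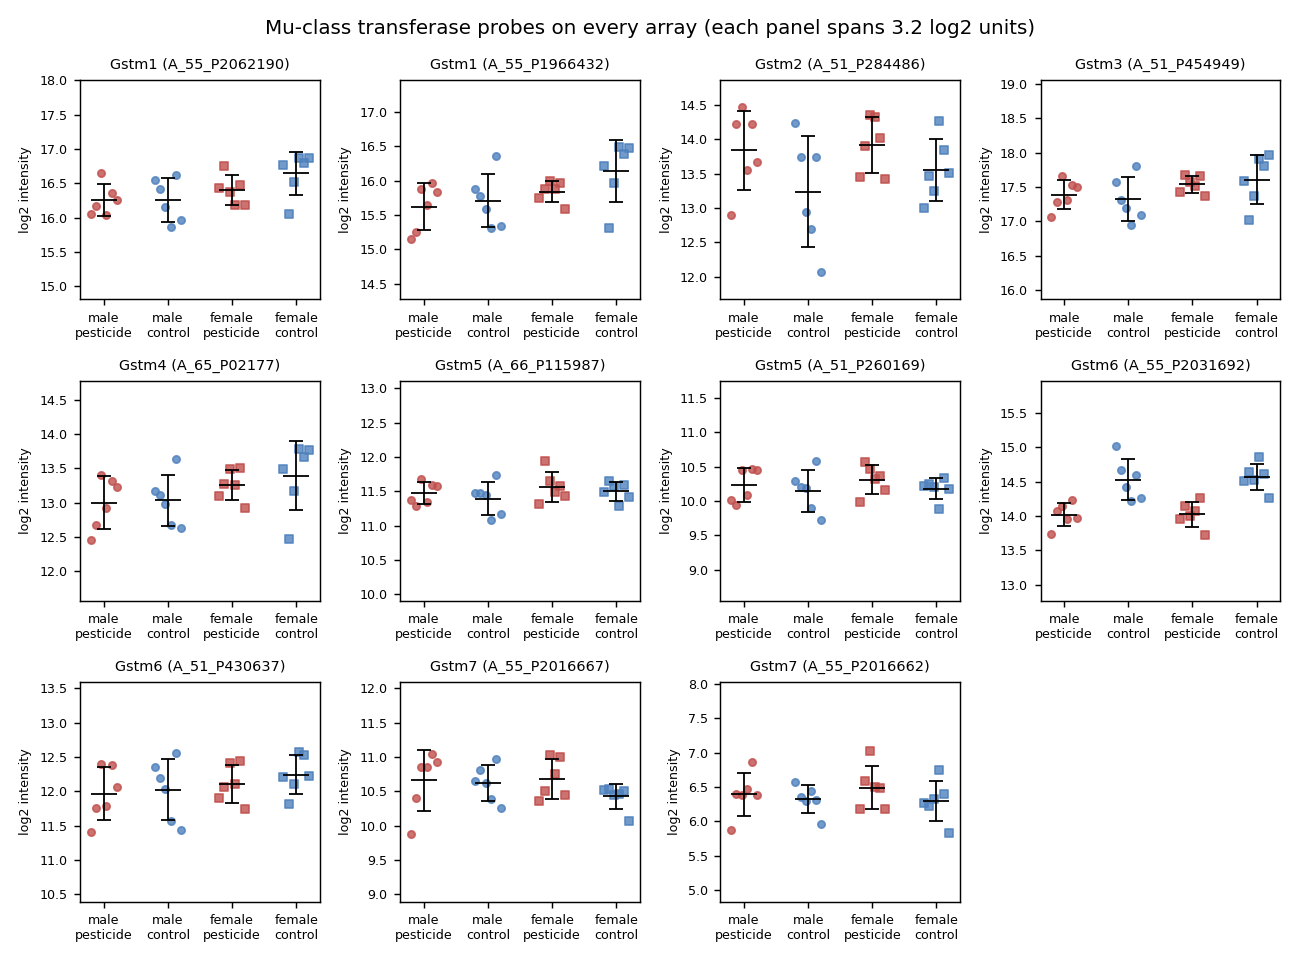
Log2 intensity (y axis, quantile normalized, each panel spanning 3.2 units) of the 11 mu probes on each of the 24 arrays by labelled group (x axis), with points for arrays and black bars for the mean and SD of 6 arrays. The labelled groups overlap in 10 panels. In that of Gstm6 A_55_P2031692 most labelled pesticide arrays lie lower, with an overlap in labelled males and the groups meeting in labelled females.

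On 7 of the 24 arrays all 11 mu probes lay on the same side of their group mean. The 11 probes stand for 7 related genes and are not independent readings. How many other probes of the array moved likewise was not tested, so the count is not a result about the mu class. On the array labelled male pesticide 1 all 11 mu probes were below their group mean, by a median of -0.48, and 8 of them were at the lowest value of the group. The arrays labelled male control 6 and female pesticide 6 were likewise below the mean on all 11, by a median of -0.37 and -0.26. The arrays labelled male pesticide 5, male control 1, female pesticide 5 and female control 5 were above it on all 11. On other arrays the mu probes were divided, as on labelled female control 2, where 4 of 11 were above the mean and they ran from -0.91 to 0.15. Labelled male control 5 held the highest value of its group for 8 mu probes. The 2 pi probes did not share this order, and in the labelled control groups they had their own extremes, both lowest on labelled male control 1 and both lowest on labelled female control 5.

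**Figure D5:**
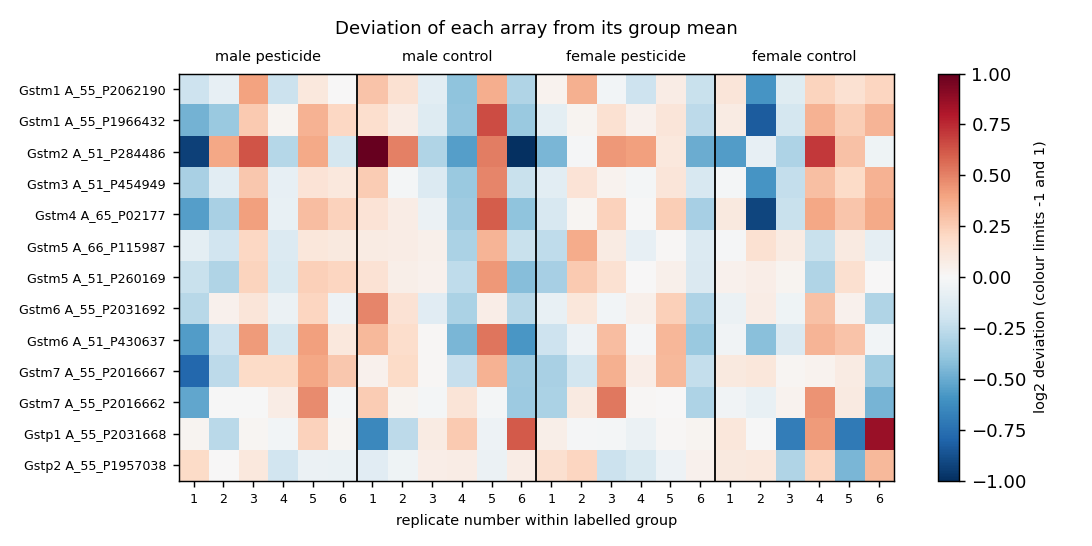
Deviation of each array from its labelled group's mean (colour, log2, red above and blue below the mean, limits -1 and 1) for the 13 probes (rows) on 6 replicates of each labelled group (columns). Columns of one colour across the mu rows show arrays on which the mu probes lay together, such as labelled male pesticide 1 and male control 6, and the Gstp1 row carries its deep colours in the labelled control groups.

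The within-group spread of Gstm2 was wide for these arrays. Its residual SD was 0.58, larger than that of 98.2% of the tested probes, against a median of 0.18 over all of them. Gstp1 (0.39), Gstm4 (0.38), the Gstm1 probe A_55_P1966432 (0.35) and the inner Gstm6 probe (0.35) were above 90.8% or more. The other Gstm1 probe, Gstm3 and both Gstm7 probes were above 80.3% to 86.2%. Gstp2 (0.19) and one Gstm5 probe (0.19) lay close to the median.

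The difference of the members between the labelled diets did not differ between the labelled sexes by the test of that difference. In it 0 of all 32078 probes passed with limma (0% called). An unadjusted p under 0.05 was found for 1265, none of them a member. Since sex-linked transcripts went with the labelled diet in both labelled sexes, whether a diet effect depends on sex was not tested. For Gstp1 the labelled female difference minus the labelled male difference was 0.51 (SE 0.30, 95% interval -0.10 to 1.12, limma adjusted p = 1), so an interval that wide does not show that they were alike. For Gstp2 it was 0.14 (95% interval -0.18 to 0.46). For the Gstm6 end probe it was -0.03 (95% interval -0.39 to 0.33).

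Between labelled males and labelled females on the same labelled diet no member probe passed. Within each labelled diet Xist and Eif2s3y were at like levels in both labelled sexes. A difference between male and female livers was therefore not tested here. In limma 0 probes passed on either diet over the whole array (0% called), while 1792 probes with the control diet and 1311 with the pesticide diet had an unadjusted p under 0.05. Of the members 3 were among the 1792, and none among the 1311. Male minus female on the labelled control diet was 0.47 for Gstp1 (SE 0.21, limma adjusted p = 0.83) and -0.39 and -0.43 for the 2 Gstm1 probes (limma adjusted p = 0.71 and 0.84). Gstp1 differed by -0.04 on the labelled pesticide diet (95% interval -0.47 to 0.39).

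The other glutathione transferases, of which 14 were tested by their brightest probe, divided between higher and lower. In labelled males 3 were higher (11.6% of all tested probes were higher) and 3 lower, and in labelled females 2 were higher (8.88% of all) and 3 lower. Mgst3, a membrane-bound transferase and peroxidase, rose by 1.23 in labelled males and 0.65 in labelled females (limma adjusted p = 2.6e-05 and 0.013). Gsto1 of the omega class rose by 0.42 and 0.51 in labelled males and females (limma adjusted p = 0.012 and 0.0041), though the labelled male value did not pass when the scanner's processed signal was scaled by its 75th percentile (0.33, limma adjusted p = 0.07). Mgst1, the microsomal transferase, fell by 0.35 in labelled males and 0.33 in labelled females, and Ptges, the related prostaglandin E synthase, fell by 0.21 and 0.22.

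Among 18 tested enzymes that make and use glutathione, 1 was higher and 4 lower in labelled males (10.7% of all tested probes were lower), and 1 was higher and 3 lower in labelled females (9.44% of all). Ggct, which breaks gamma-glutamyl peptides down, rose by 1.01 in labelled males and 0.90 in labelled females (limma adjusted p = 4.6e-05 and 0.00021). Gsr, which regenerates reduced glutathione, fell by 0.28 and 0.40, and Glo1, the glyoxalase that uses it, by 0.36 and 0.38. Adh5, which oxidises the glutathione adduct of formaldehyde, fell by 0.24 and 0.21. Gclc and Gclm, the subunits of the rate-limiting synthetic enzyme, did not pass, at -0.03 and -0.08 in labelled males and -0.30 and -0.07 in labelled females.

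Among the steps after conjugation Nat8 fell and Abcc4 rose, both by more than 2 log2 units. Of 16 tested genes of mercapturate formation and conjugate export, 6 were higher and 3 lower in labelled males, and 3 were higher and 4 lower in labelled females. Of all tested probes 11.6% were higher and 10.7% lower in labelled males, and 8.88% and 9.44% in labelled females. Nat8, which acetylates cysteine conjugates to mercapturates, averaged 8.12 ± 0.26 on labelled male pesticide arrays and 14.16 ± 0.29 on labelled male control arrays, and 8.37 ± 0.41 on labelled female pesticide arrays and 14.14 ± 0.24 on labelled female control arrays (SD over 6 arrays each). It fell by 6.04 and 5.78 in labelled males and females (limma adjusted p = 6.9e-19 and 1.9e-18). Abcc4, an exporter of organic anions, rose by 2.07 and 2.23 (limma adjusted p = 5e-08 and 1.7e-08). Anpep, a peptidase that trims glutathione conjugates, rose by 0.36 and 0.48, and Ccbl1, a cysteine conjugate lyase, fell by 0.54 and 0.67.

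Among 18 other targets of NRF2, 3 were higher and 1 lower in labelled males, and 0 were higher and 4 lower in labelled females. For these and the regulators below, the shares over all tested probes were 11.6% higher and 10.7% lower in labelled males. In labelled females they were 8.88% and 9.44%. Nqo1, a quinone reductase, differed by 0.71 in labelled males, which passed, and by 0.43 in labelled females, which did not (limma adjusted p = 0.0072 and 0.11). Taldo1, of the pentose phosphate pathway, was lower in both, by -0.33 and -0.45. Of 14 regulators 4 were higher and 0 lower in labelled males, with 2 higher when arrays were scaled to the 75th percentile, and 3 were higher and 0 lower in labelled females. Nr1i3, which encodes CAR, rose by 0.75 and 0.74, while Nfe2l2 (NRF2) and its inhibitor Keap1 did not pass, at 0.17 and 0.02 in labelled males and -0.11 and -0.07 in labelled females. Cux2, a transcription factor known to be female-biased in mouse liver, averaged 10.06 and 10.11 in labelled male and female pesticide livers, against 5.70 and 5.53 in labelled male and female control livers, where it was well above background on 2 and 1 of 6 arrays. Ahr, the dioxin receptor, rose by 0.58 in labelled females (limma adjusted p = 0.0036), and its labelled male value of 0.37 (limma adjusted p = 0.048) did not pass with a slide or replicate block, with scaling to the 75th percentile or without the filter on dim probes. None of the 5 binding partners of pi transferases passed, among them Mapk8 (JNK1) at -0.06 and -0.16 and Prdx6 at 0.14 and 0.11 in labelled males and females.

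Markers of some other cell types, macrophages above all, differed between the labelled diets while the pi transferases fell. The part of such cells in the member differences was not tested. Kupffer cell and macrophage markers were higher for 11 of the 12 genes and lower for 0 in each labelled sex, with a median of 1.37 in labelled males and 1.198 in labelled females. Their mean level per array ran from 11.20 to 12.01 in labelled male pesticide and from 9.84 to 11.47 in labelled male control livers, and from 10.76 to 12.37 in labelled female pesticide and from 9.64 to 11.89 in labelled female control livers. Over all tested probes 11.6% were higher in labelled males and 8.88% in labelled females. Of 10 endothelial markers 6 were higher in each labelled sex, and of 10 stellate markers 8 were higher in labelled males and 4 in labelled females. T and NK markers gave 2 and 1 of 7 higher, B and plasma cell markers 4 and 0 of 5, and neutrophil markers 2 and 3 of 6, in labelled males and females. Of 5 erythroid markers 2 were higher and 1 lower in labelled males, and 0 higher and 1 lower in labelled females. Bile duct markers gave 0 of 8 in labelled males and 1 lower in labelled females.

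Hepatocyte markers, which define the labelled tissue, were bright throughout, at a mean per array from 17.08 to 17.27 in labelled male pesticide and from 17.23 to 17.31 in labelled male control livers. In labelled females it ran from 17.00 to 17.24 with pesticide and from 17.08 to 17.18 in controls. Of 9 tested, 0 passed in labelled males and 1 was higher in labelled females. With arrays scaled to the 75th percentile of the median or the processed signal, 4 or 5 of them were lower in labelled males. Of 8 pericentral markers 0 passed in labelled males and 1 was lower in labelled females, and of 8 periportal markers 2 were lower in labelled males, and 4 were higher and 2 lower in labelled females. Over the whole array 11.6% of tested probes were higher and 10.7% lower in labelled males, and 8.88% and 9.44% in labelled females.

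The genes closest in profile to a member were listed, and by such a measure some gene is always closest. Profiles were centred over all 24 arrays, so the step between the labelled diets enters the distance. By the root-mean-square distance between centred log2 profiles over 24 arrays, among 13956 genes, the closest to Gstp1 were Lama3, a laminin chain (0.33), the Y-linked RNA helicase Ddx3y (0.37, log2 differences of -2.56 and -2.31 in labelled males and females) and the endocytic receptor Lrp2 (0.40). The closest to the Gstm6 end probe were Eef1akmt1 (0.17), Ppip5k2 (0.17) and Taldo1 (0.18).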

How the data were processed

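Spot fluorescence intensity, local background and quality marks came from the authors' deposited scanner files, per the file headers, extracted with Agilent Feature Extraction 10.10.1.1 per the submitters' processing notes. The value table deposited by the authors holds normalized log2 values and served as an alternative; each of the 24 scanner files correlated best with its own column. Gene names and mm9 probe positions came from the scanner files, and 0 other columns of per-sample values were set aside.

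The median signal was taken on the log2 scale without background subtraction. Control spots (3671 of 62976) were left out, outlier spots (0 to 9 an array) were treated as missing, repeated spots of 1 probe were averaged and arrays were quantile normalized over 56605 probes. A probe was tested when well above background on at least 4 of the 6 arrays of a group. One mean per group was fitted to the 24 arrays with limma 3.58.1 in R 4.3.3, with two-sided contrasts, eBayes and Benjamini-Hochberg adjustment over 32078 probes, and 95% intervals from the same fit. The procedure was tested on simulated data. Arrays give no counts, and their number limits the precision.

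Differences between 2 probes of a gene were tested by exact permutation over 924 splits, adjusted over 8 tests. Named were all member probes, up to 4 genes of each pathway list that passed in both labelled sexes, Xist, Eif2s3y and Ddx3y, and the 3 genes closest to the member of each class with the largest difference. Gclc, Gclm, Nqo1, Nfe2l2, Keap1, Mapk8 and Prdx6 were named after their values had been seen. The members and the lists were chosen with earlier results of these data known. Alternatives covered background correction, scaling, probe filters, outlier spots, slide and replicate blocks, each slide alone, trended and robust eBayes, fits on the compared groups alone, the deposited table and leaving out each array.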

Additional observations from a re-analysis of the deposited data

Results flagged for a closer look

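Of the 52 sets of 6 arrays checked (13 probes in 4 labelled groups), 2 held an array far from the other 5, and about 1 in 20 such sets is marked by chance. The Gstm5 probe A_51_P260169 was at 9.8835 on the array labelled female control 4, and the nearest of the others was at 10.1815. The Gstm7 probe A_55_P2016667 was at 10.0737 on the array labelled female control 6, and the nearest of the others was at 10.4451.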

How the results depend on the processing

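The count of member probes that were lower was 3 in each labelled sex in every alternative except single slides, where it was 2 or 3 in labelled males and 2 or, on slide 3 alone, 1 in labelled females; fewer arrays enter those fits. Gstp1 and Gstp2 passed in all of them but Gstp1 in labelled females on slide 3. None was higher in either labelled sex, and over both labelled sexes 0 to 1 was higher when single arrays were left out, the 1 being Gstm2 without labelled male control 1 or labelled male pesticide 1. No difference reversed among those that passed. Leaving out single arrays moved the unequal change of probe pairs from -0.5459 to -0.3909 (Gstm6, labelled males), -0.4669 to -0.3123 (Gstm6, labelled females), -0.0112 to 0.1042 (Gstm1, labelled females), -0.0351 to 0.0323 (Gstm5, labelled males), -0.0991 to 0.0452 (Gstm7, labelled males) and -0.0199 to 0.1172 (Gstm7, labelled females). The Gstm6 pair passed at an adjusted p of 0.0346 without labelled male control 5, or without labelled female control 5 (-0.4612) or 6 (-0.4669). It did not pass without any other single array, with adjusted exact permutation p up to 0.139 (labelled males) and 0.0866 (labelled females). With the processed signal the Gstm7 pair in labelled females was at -0.1951; the cause was not tested. The fit with a replicate block gave 3 and 3 member probes lower and changed no member's call (Gstp1 in labelled males -2.75, limma adjusted p = 8.7e-09). It called 8099 probes of the array against 7131 in labelled males, and 6751 against 5878 in labelled females. The labels tie no samples together by number, so the numbers were not taken as pairs. Deviations of same-numbered arrays from their group means correlated at -0.118 to 0.337 over 36 pairs, 15 of them over 0.1. The median was 0.078, against -0.0215 for arrays of different numbers. Of the 24 arrays 14 were matched best by their own number, so arrays of a number shared some deviation, a hint from the data and not the design. Same-numbered arrays also lay on the same slide. With 2 arrays against 2 on a slide, differences the size of Gstm6 were mostly not detectable.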
